A study of Mus musculus with 18 samples.

Results

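Immunoglobulin transcripts were followed in mouse pancreas through 195 gene models: every row that the deposited table types as an immunoglobulin gene or pseudogene, plus Jchain, out of 25651 genes in the table. They comprised 13 constant-region genes, 156 V genes, 11 V pseudogenes, 12 J segments, 2 D segments and Jchain. The heavy-chain locus on chromosome 12 held 80 of them, the kappa locus on chromosome 6 held 103 and the lambda locus on chromosome 16 held 10. Jchain lies on chromosome 5, and 1 V pseudogene, Gm50427, lies on chromosome 19. Together the 195 gene models held 126620 counts, of which 117793 lay in constant regions, and 135 of the 195 had under 20 counts over all libraries.

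An antibody is built from heavy chains and kappa or lambda light chains, and in each B cell a V and a J segment (with a D segment in heavy chains) are joined and then spliced to a constant region. The heavy-chain constant region sets the class: IgM and IgD on naive B cells, and IgG, IgA or IgE after class switching. Plasma cells secrete antibody and contain very large amounts of these transcripts, and the J chain links units of polymeric IgA and IgM, the forms that epithelia carry into secretions such as those of the gut and pancreatic duct.

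The study measured poly(A)-primed RNA in snap-frozen pancreas of mice aged 20 weeks, all on a mixed background of the 129Sv and C57BL/6 strains. There were 5 mice labelled KPC ASC KO, 7 labelled KPC and 6 wild-type (WT) mice, with 1 library each. The name KPC commonly stands for a strain that develops pancreatic tumours. The alleles and the Cre driver are not spelled out in the labels. ASC is the inflammasome adaptor encoded by Pycard. The KPC ASC KO label names the KPC genotype too, so KPC mice are the control for the loss of ASC, and the labels do not say which cells lack it. Library totals ran from 374432 to 647947 counts in KPC ASC KO, from 452472 to 1626977 in KPC and from 294077 to 416879 in WT mice. Pycard averaged 19.9 CPM in KPC ASC KO, against 70.0 CPM in KPC and 58.6 CPM in WT mice (log2 fold change -1.94 against KPC, SE 0.35, edgeR adjusted p = 0.0043). Against WT the difference was not called (-1.67, SE 0.38, edgeR adjusted p = 0.140). Levels are counts scaled to a common library size (CPM) with factors from the trimmed mean of M values (TMM), and are not scaled by transcript length.

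The joining segments of the kappa locus are shown because their use in the libraries was very uneven. All lie on the plus strand of chromosome 6 in GRCm38, just upstream of Igkc, and are printed 5′ to 3′ from the GENCODE M21 transcripts. Capitals mark TTCGG, the phenylalanine codon and the start of the glycine codon that open the conserved end of the joined V region, or in Igkj3 the stretch at the same place. Coordinates are those of the gene models, which for Igkj2 and Igkj5 run a few bases beyond the transcript printed.
Igkj1 (chr6:70722562-70722599): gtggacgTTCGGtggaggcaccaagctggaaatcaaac
Igkj2 (chr6:70722916-70722958): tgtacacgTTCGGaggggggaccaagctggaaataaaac
Igkj3 (chr6:70723223-70723260): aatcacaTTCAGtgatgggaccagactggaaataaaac
Igkj4 (chr6:70723548-70723585): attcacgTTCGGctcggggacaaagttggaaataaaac
Igkj5 (chr6:70723886-70723927): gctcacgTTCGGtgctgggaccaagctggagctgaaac
Igkj3 differs from the TTCGG motif by G4A, counted from 1 at the motif's 5′ end. Searched on the coding strand only, the motif occurs in 8 of the 14 J segments of the reference, or 57.1%. Of 295 counts in kappa J segments, Igkj1 held 86, Igkj2 85, Igkj4 43 and Igkj5 80, while Igkj3 held 1, in a single library. Igkj3 is generally described as a segment that mice do not use in functional kappa chains. Summed over the mice of a group, Igkj1 had 6 counts in KPC ASC KO, 72 in KPC and 8 in WT mice, while Igkj5 had 7, 57 and 16 in the same groups.

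The V segments with the highest mean level at each locus are shown by their last 60 bases, the stretch that runs into the antigen-contacting loop joined to J. Capitals mark TATTNCTGT, which runs from a conserved tyrosine codon to the cysteine codon before that loop and was searched on the coding strand of the last 60 bases. It occurs in 139 of the 218 V genes of the reference, or 63.8%.
Iglv1 (chr16:19085017-19085500, minus strand): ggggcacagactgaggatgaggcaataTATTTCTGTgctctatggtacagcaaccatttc
Igkv12-46 (chr6:69764523-69765022, minus strand): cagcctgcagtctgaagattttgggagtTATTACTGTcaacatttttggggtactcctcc
Igkv6-17 (chr6:70371439-70371993, plus strand): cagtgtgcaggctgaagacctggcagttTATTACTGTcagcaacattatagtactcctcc
Igkv6-15 (chr6:70406469-70406992, minus strand): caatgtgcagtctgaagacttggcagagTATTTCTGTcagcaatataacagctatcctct
Ighv1-54 (chr12:115193675-115194134, minus strand): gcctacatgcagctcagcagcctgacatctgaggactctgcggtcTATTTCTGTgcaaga
Several members are near copies, so the authors' counting may have split reads between them. Over the last 280 bases, Iglv1 and Iglv2 are identical at 97.5% of aligned positions and Igkv12-46 and Igkv12-41 at 95%. The constant regions Iglc2 and Iglc3 are identical at 95.6% of aligned positions, and Ighg2b and Ighg2c at 87.8%. Values of single genes within these pairs are uncertain for that reason.

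Immunoglobulin transcripts were abundant in 4 of the 7 KPC libraries and scarce in the rest. They took 0.265, 0.306, 0.312, 0.506 and 0.325% of all counts in KPC ASC KO mice 318, 335, 377, 384 and 388. In KPC mice 40, 89, 145 and 154 they took 2.64, 2.32, 3.501 and 3.22%, and in KPC mice 43, 48 and 210 they took 0.205, 0.334 and 0.460%. The WT libraries ranged from 0.266 to 0.348%. KPC mice 40, 89, 145 and 154 thus held 82.5% of all immunoglobulin counts and 33.1% of all library counts. The same 4 mice also had the highest summed levels of T cell genes, at 585 to 811 CPM, against 48.2 to 116 CPM in the other 3 KPC mice. The T cell sum was 70.5 to 174 CPM in KPC ASC KO and 89.1 to 144 CPM in WT mice, and its part in the immunoglobulin levels was not tested. In the 14 other libraries the Ighg1 count ran from 195 to 557, a 2.86-fold range, while their library totals differed 5.53-fold. Other members differed from Ighg1 in this. The range was 2.98-fold for Igkc and 3.8-fold for Ighe, but 6.56-fold for Jchain, 8.4-fold for Ighm and 26.3-fold for Igha. Per the labels, samples were pooled before amplification, so low counts of a mouse's own RNA and counts carried over from other samples of the pool cannot be told apart. In bulk tissue, fewer cells of a type and less RNA per cell cannot be told apart either.

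**Figure D1:**
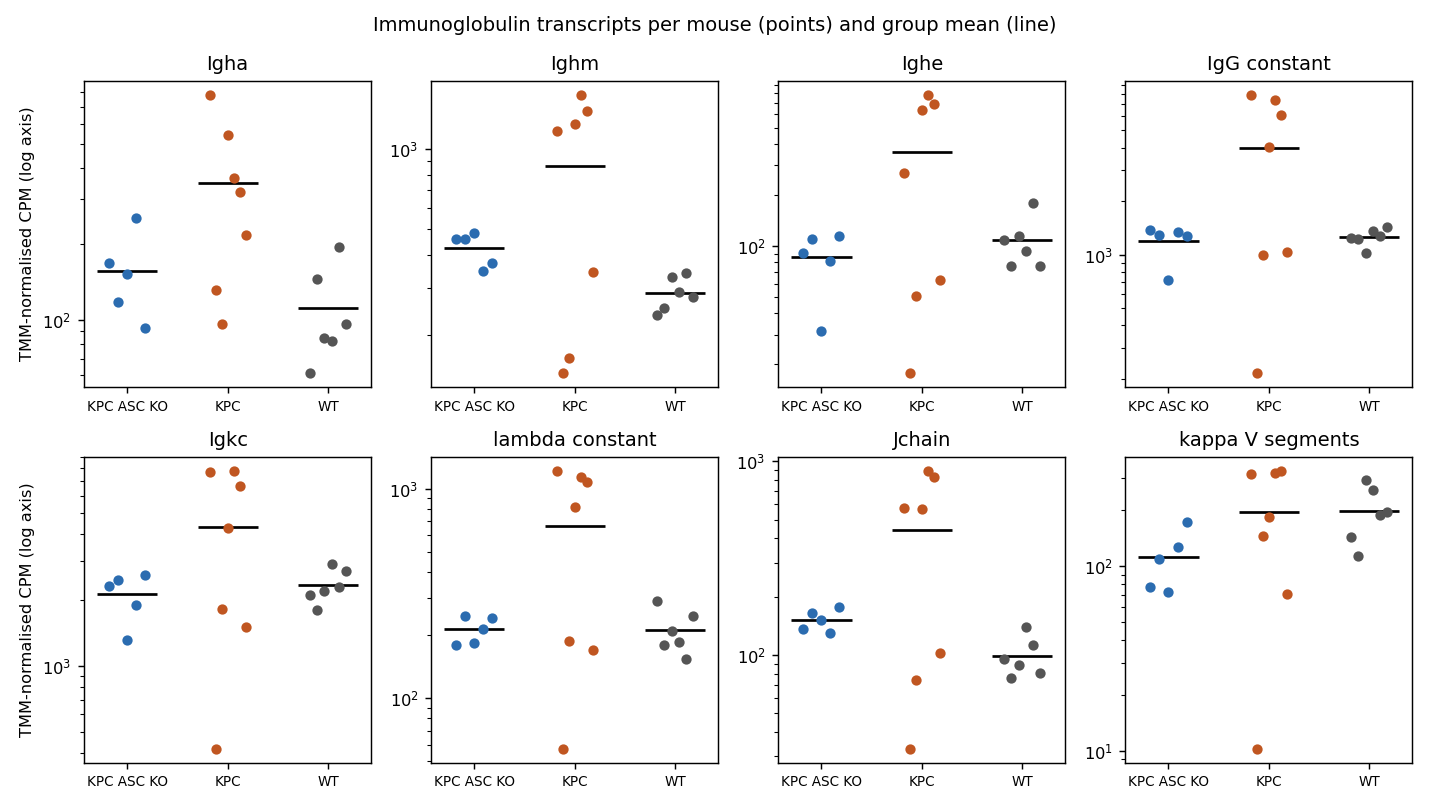
TMM-scaled CPM on log axes for 8 immunoglobulin measures, with 1 point per mouse in KPC ASC KO (n = 5), KPC (n = 7) and WT (n = 6) pancreas and a line at the group mean. The KPC points fall into high and low sets for most measures and run from 215 to 7901 CPM for IgG constant genes, while the KPC ASC KO and WT points lie close together.

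In KPC against WT pancreas, transcripts of IgA, IgM and the J chain were higher, and no immunoglobulin gene was called lower. IgG1, IgG2c and 1 lambda constant gene were called higher near the threshold, and each lost its call in 10 or more of 18 omissions of a single mouse. The IgD gene was also called, but it was tested only because it was high in KPC. Of the 195 members, 14 passed the filter on low counts (about 10 counts in at least 5 mice, the smallest group) and were tested with edgeR's quasi-likelihood test over 6920 genes. The other 181 were too sparse to test. Of the 14, 7 were called higher at an adjusted p under 0.05 and 0 lower, and over all genes tested 29.9% were called, 14.8% higher and 15.1% lower. The median log2 fold change was 1.70 over the 14 members and 0.06 over all genes tested.

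Igha (chr12:113254830-113260236), the constant region of IgA, stood at 96.0 to 780 CPM in KPC mice (median 322) and at 61.3 to 195 CPM in WT mice (median 90.4). The groups overlapped, and Igha was higher in KPC (log2 fold change 1.67, SE 0.45, adjusted p = 0.0115). Jchain (chr5:88519809-88527891) stood at 32.6 to 896 CPM in KPC mice (median 571) and at 75.9 to 139 CPM in WT mice (median 92.2). The 4 KPC mice with abundant immunoglobulin all lay above every WT mouse, while KPC mice 43 and 48 lay below every WT mouse. Scaled by library totals alone, mice 43 and 48, at 64.5 and 68.5 CPM, lay within the WT range of 41.1 to 84.6 CPM. Jchain was higher in KPC (2.17, SE 0.65, adjusted p = 0.0202).

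Ighm (chr12:113418558-113422730), carried by naive B cells and by cells that secrete IgM, stood at 144 to 1600 CPM in KPC mice (median 1168) and at 238 to 343 CPM in WT mice (median 283). Its log2 fold change was 1.59 (SE 0.49, adjusted p = 0.0236). Ighd, made from the same transcript unit in naive B cells, had 1 to 5 counts in each WT library and 3 to 244 in KPC libraries. It was called higher in KPC (2.53, SE 0.92, adjusted p = 0.0474), with 100 to 244 counts in KPC mice 40, 89, 145 and 154 and 3 to 16 in the other 3 KPC mice. Ighd met the count filter in 5 KPC mice, 2 KPC ASC KO mice and 0 WT mice, so it was tested only because it was high in KPC, and its call is no support for a difference. Leaving it aside, 6 of 13 members were called higher.

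The 4 IgG genes made up most heavy-chain counts in every group. Ighg1 (chr12:113325240-113330523) stood at 170 to 6214 CPM in KPC mice (median 2833) and at 827 to 1257 CPM in WT mice (median 1031). KPC mouse 43, at 170 CPM, lay below all WT mice, and KPC mice 40, 89, 145 and 154 lay above all of them. Ighg1 (1.59, SE 0.59, adjusted p = 0.0495) and Ighg2c (2.24, SE 0.77, adjusted p = 0.0393) were called higher. Ighg2b (1.77, adjusted p = 0.0681) and Ighg3 (2.08, adjusted p = 0.0536) were not called. Ighe, the constant region of IgE, averaged 358 ± 334 CPM in KPC (SD, n = 7) and 108 ± 38.6 CPM in WT mice (SD, n = 6), and its log2 fold change of 1.75 did not pass (SE 0.74, edgeR adjusted p = 0.0875). Counts at the 3′ end of a heavy-chain constant gene do not separate switched antibody transcripts from the germline transcripts made before switching.

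Among light chains, Igkc (chr6:70726435-70726966), the single kappa constant gene and the member with the most counts (48687), stood at 416 to 7815 CPM in KPC mice (median 4269) and at 1790 to 2916 CPM in WT mice (median 2245). Its log2 fold change of 0.88 (SE 0.45) missed the threshold, at an adjusted p of 0.146. Of the 3 lambda constant genes, Iglc3 was called (1.62, adjusted p = 0.0483), while Iglc1 (1.634, adjusted p = 0.0553) and Iglc2 (1.73, adjusted p = 0.0553) missed the threshold. The only V segment tested, Iglv1, had a log2 fold change of 0.20 (SE 0.48, adjusted p = 0.787).

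When the segments of each class were summed and fitted with all other genes, 6 of 11 class measures were called higher in KPC against WT and 0 lower. In that table of 6917 rows 30% were called, 14.7% higher and 15.3% lower. The summed IgG constant genes had a log2 fold change of 1.65 (SE 0.57, adjusted p = 0.0372) and the summed lambda constant genes one of 1.66 (SE 0.57, adjusted p = 0.0379). Both sums lost their call in 10 of 18 omissions of a single mouse. Igha, Ighm, Ighd and Jchain were the other 4, and the call of Ighd is again no support for a difference. The summed V segments did not pass, with log2 fold changes of 0.10 for heavy, -0.01 for kappa and 0.30 for lambda V segments.

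The fit was also run without KPC mice 40, 89, 145 and 154. These are the mice with the highest immunoglobulin share, so the choice itself lowers KPC levels, and the values below describe the other 3 KPC mice and test nothing. Without the 4 mice, no member was called higher in KPC against WT and Ighe was called lower (-1.38, adjusted p = 0.0319), and the log2 fold change of Igha was 0.45 (adjusted p = 0.406) while those of the other 13 tested members lay below 0. Leaving out any single mouse kept Igha, Ighm and Jchain called. Ighg1 lost its call in 15 of the 18 such omissions, Iglc3 in 14 and Ighg2c in 10. The number of members called ran from 3 to 13 and was 13 without KPC mouse 43. That mouse had the lowest immunoglobulin share, so its removal itself raises KPC levels. With libraries scaled by their totals alone, all 14 were called higher, but that scaling moved the median of all genes by 1.34 on the log2 scale. When scaling left out the immunoglobulin rows, Ighg1 and Iglc3 were not called (edgeR adjusted p = 0.0616 and 0.0613).

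**Figure D2:**
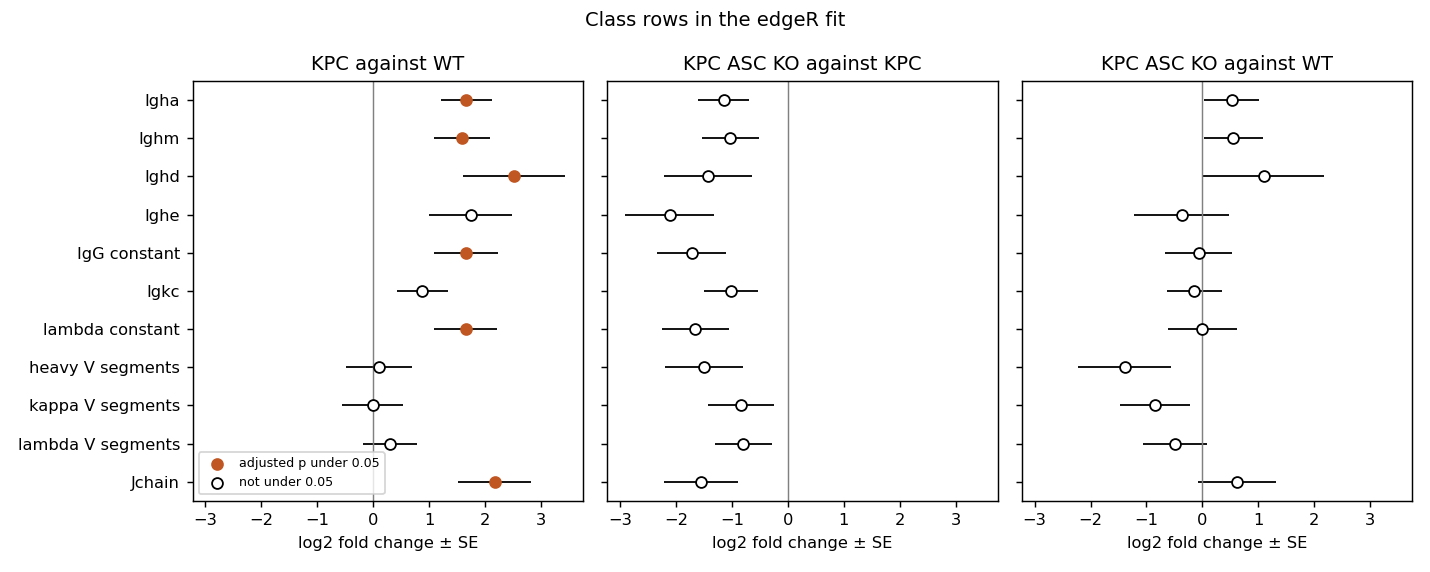
Log2 fold changes (points) with their SE (bars) for 11 class measures in the edgeR fit of 18 mice, in each of the 3 comparisons of genotypes. Filled points, with an adjusted p under 0.05, occur only for KPC against WT, where they number 6. They include Ighd, which was tested only because it was high in KPC.

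In KPC ASC KO against KPC pancreas, no immunoglobulin gene passed the test. Of the 14 members tested 0 were called, at a background of 9.42% of all genes (6.73% higher and 2.69% lower), although 9 of the 14 had an unadjusted p under 0.05. The median log2 fold change was -1.47 over the 14 members and -0.05 over all genes. DESeq2, run on the same counts, called 5 of 18 members with an adjusted p lower in KPC ASC KO (Ighe, Ighg1, Ighg2b, Iglc2 and Iglc3), against 2.51% of its 9733 genes. In KPC against WT it called 11 of 47 members higher, against 7.95% of its 14207 genes. Among the 11 class measures 0 were called in edgeR, against 9.41% of that table (6.72% higher and 2.69% lower).

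Igha stood at 168, 117, 152, 252 and 92.9 CPM in KPC ASC KO mice 318, 335, 377, 384 and 388, against 96.0 to 780 CPM in KPC mice (median 322). Every KPC ASC KO value lay within or just below the KPC range, and the log2 fold change was -1.14 (SE 0.46, adjusted p = 0.122). Jchain stood at 137, 164, 152, 130 and 177 CPM in the same mice, against 32.6 to 896 CPM in KPC mice (median 571). All 5 KPC ASC KO mice lay above the 3 lowest KPC mice and below the 4 highest, and the log2 fold change was -1.55 (SE 0.66, adjusted p = 0.145). Scaled by library totals alone, the KPC ASC KO range of 74.1 to 149 CPM took in KPC mouse 210, at 131 CPM. The summed IgG constant genes stood at 1373, 1293, 722, 1337 and 1271 CPM in KPC ASC KO mice, against 215 to 7901 CPM in KPC mice (median 4029). Again the KPC ASC KO mice lay inside the KPC range (-1.72, SE 0.61, adjusted p = 0.0828). Ighe stood at 91.2, 109, 31.5, 81.6 and 114 CPM in KPC ASC KO mice and at 17.7 to 781 CPM in KPC mice (median 270), and had the lowest log2 fold change of the 14 (-2.11, SE 0.80, adjusted p = 0.106). Without KPC mouse 43, 9 members were called lower, without KPC mouse 48, 4 were, and without KPC mouse 210, 3 were. These are the KPC mice with the lowest immunoglobulin share, so their removal itself raises KPC levels. Leaving out any other single mouse gave 0 calls. Without KPC mice 40, 89, 145 and 154, again chosen for their high levels, 0 were called, and the log2 fold changes of IgG (0.68), Igkc (0.77), Ighm (0.97) and Jchain (1.17) lay above 0, a sign that the choice of mice can set.

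Between KPC ASC KO and WT pancreas, 0 of the 14 members were called, and neither was any gene in either table (0% of 6920 and 0% of 6917, in both directions). Pycard itself was not called (-1.67, edgeR adjusted p = 0.140), so the lack of calls does not show that the groups are equal. At an unadjusted p under 0.05 the edgeR test found 0 members and 691 genes, and DESeq2 called 0 of 14 members and 0.234% of its 4267 genes. The median log2 fold change of the members was 0.08. Igkc stood at 2328, 2481, 1312, 1892 and 2609 CPM in KPC ASC KO mice, against 1790 to 2916 CPM in WT mice (median 2245), and the groups overlapped almost fully (-0.14, SE 0.49, adjusted p = 0.961). Ighm stood at 459, 461, 482, 349 and 372 CPM in KPC ASC KO mice, against 238 to 343 CPM in WT mice (median 283). The TMM-scaled Ighm values of KPC ASC KO mice all lay above those of WT mice, but the fitted difference was not called (0.56, SE 0.52, adjusted p = 0.761). Scaled by library totals alone the groups overlapped, at 235 to 472 CPM in KPC ASC KO and 141 to 256 CPM in WT mice. KPC mice enter the first 2 comparisons, and KPC ASC KO mice the last 2, so the comparisons are not independent of each other.

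The class composition within each library does not depend on how libraries are scaled. IgG genes took 62.7 ± 6.75% of heavy-chain constant counts in KPC ASC KO (SD, n = 5), 65.8 ± 12.2% in KPC (SD, n = 7) and 70.7 ± 5.26% in WT mice (SD, n = 6). Ighm took 23.1 ± 6.59% in KPC ASC KO, 17.6 ± 5.62% in KPC and 16.3 ± 2.53% in WT mice. Igha took 8.34 ± 3.04% in KPC ASC KO, 9.83 ± 7.60% in KPC and 6.15 ± 2.39% in WT mice. Ighg1 was the main gene among the IgG genes, at 77.2 ± 11.5% of IgG counts in KPC ASC KO, 80.0 ± 5.25% in KPC and 83.3 ± 3.03% in WT mice.

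Tested by exact two-sided permutation of the mice, none of the 12 differences in share (4 shares in 3 comparisons) passed after Benjamini-Hochberg adjustment. The share of lambda among light-chain constant counts came nearest. It was 9.41 ± 1.93% in KPC ASC KO, 12.5 ± 2.30% in KPC and 8.40 ± 2.21% in WT mice. The KPC minus WT difference was 4.15 percentage points (exact permutation p = 0.00699, adjusted p = 0.0839), and the KPC ASC KO minus KPC difference was -3.14 points (exact permutation p = 0.0303, adjusted p = 0.121). KPC mice ranged from 9.36 to 16.1% and WT mice from 5.99 to 12.1%. Without WT mouse 69, at 12.1%, the KPC minus WT difference passed (4.88 points, adjusted exact permutation p = 0.0303). That mouse had the highest share of the WT mice, so its removal itself widens the difference. Of 18 such omissions of a single mouse it was the only 1 that passed. The Ighm share of KPC ASC KO mice was 6.82 points above that of WT mice (exact permutation p = 0.026, adjusted p = 0.121).

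Single mice departed from their group. In KPC mouse 43, whose immunoglobulin share of all counts was the lowest of the 18, Igha took 25.5% of heavy-chain constant counts (421 of 1648, Wilson 95% interval 23.5 to 27.7%), against 3.53 to 12.8% in the other KPC mice. Ighm took 28.03% there, and IgG 41.99%. In KPC ASC KO mouse 377 Ighm took 34.1% (95% interval 30.8 to 37.6%). In KPC ASC KO mouse 384 Ighg2b took 12.6% and Ighg2c 12.9%, so that Ighg1 held 57.3% of its IgG counts, against 77.6 to 85.4% in the other 4 KPC ASC KO mice. The Ighe share was 9.61, 7.58 and 8.04% in KPC mice 89, 145 and 154 but 2.64% in KPC mouse 40, and 4.02 to 8.95% in WT mice. These intervals cover counting error only.

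**Figure D3:**
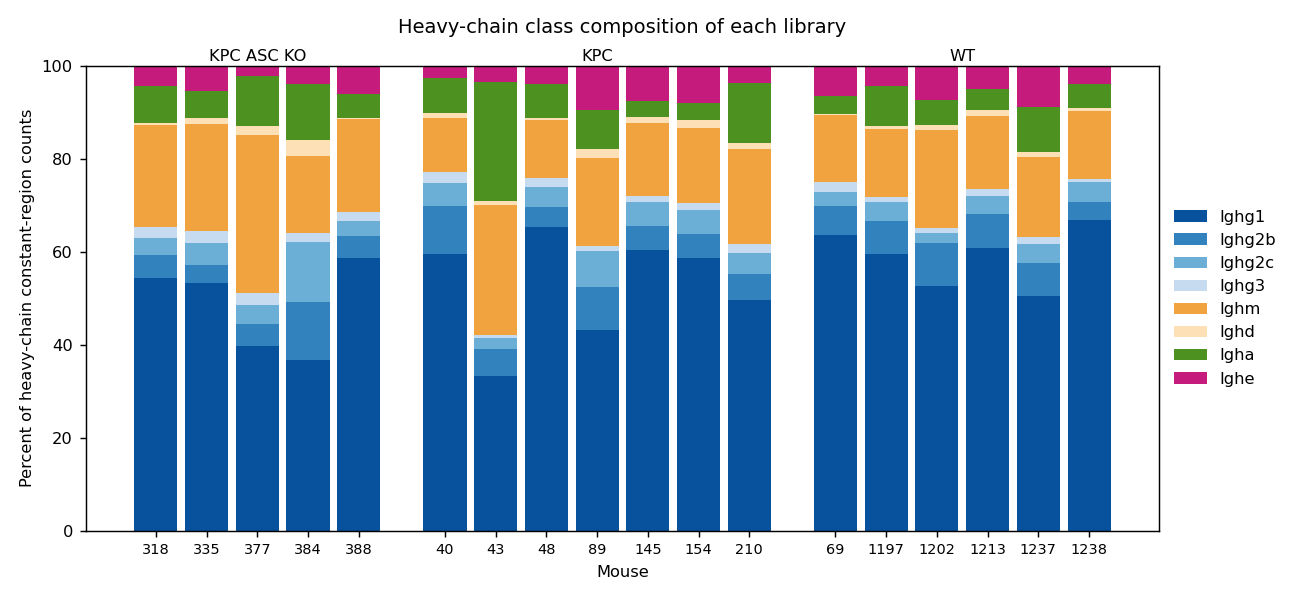
Stacked bars show the percent of heavy-chain constant-region counts held by each of 8 constant genes in each of the 18 mice, grouped as KPC ASC KO, KPC and WT. Ighg1 is the largest part of every bar, and KPC mouse 43 has the largest Igha part, at 25.5%.

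Light-chain constant counts per heavy-chain constant count ran from 1.01 to 1.54 in KPC ASC KO mice, from 0.77 to 1.53 in KPC mice and from 1.16 to 1.68 in WT mice. In KPC mice 40, 89, 145 and 154 the ratio was 0.87, 0.77, 0.87 and 0.90, below that of every KPC ASC KO and WT mouse, and it was 0.92 in KPC mouse 43.

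V segments were counted sparsely. In transcripts primed at the poly(A) tail, the V part lies beyond the whole constant region. The 97 kappa V segments held 2305 counts in all, the 66 heavy-chain V segments 248 and the 3 lambda V segments 835. Per 100 constant counts over all libraries this made 4.73 for kappa, 0.40 for heavy chains and 11.4 for lambda. Iglv1 alone held 753 of the 835 lambda V counts, or 90.2%, with 48 in Iglv3 and 34 in Iglv2. In the 4 libraries with at least 50 lambda V counts, all KPC, Iglv1 held 88.1, 90.3, 93.5 and 85.1% in mice 40, 89, 145 and 154.

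V counts were set against constant-region counts for each mouse, and the groups overlapped at the kappa and lambda loci. Kappa V counts per 100 Igkc counts were 5.31 ± 1.46 in KPC ASC KO (SD, n = 5), 4.67 ± 1.70 in KPC (SD, n = 7) and 8.47 ± 2.57 in WT mice (SD, n = 6). Lambda V counts per 100 lambda constant counts ran from 15.9 to 22.8 in KPC ASC KO, from 9.22 to 33.3 in KPC and from 12.9 to 47.2 in WT mice. Heavy V counts per 100 heavy constant counts were 0.39 ± 0.16 in KPC ASC KO, 0.39 ± 0.18 in KPC and 1.13 ± 0.56 in WT mice. No test was run on these ratios. They rest on few counts outside the 4 immunoglobulin-rich libraries, with 1 to 4 heavy V counts in each KPC ASC KO library and 3 to 8 in each WT library.

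**Figure D4:**
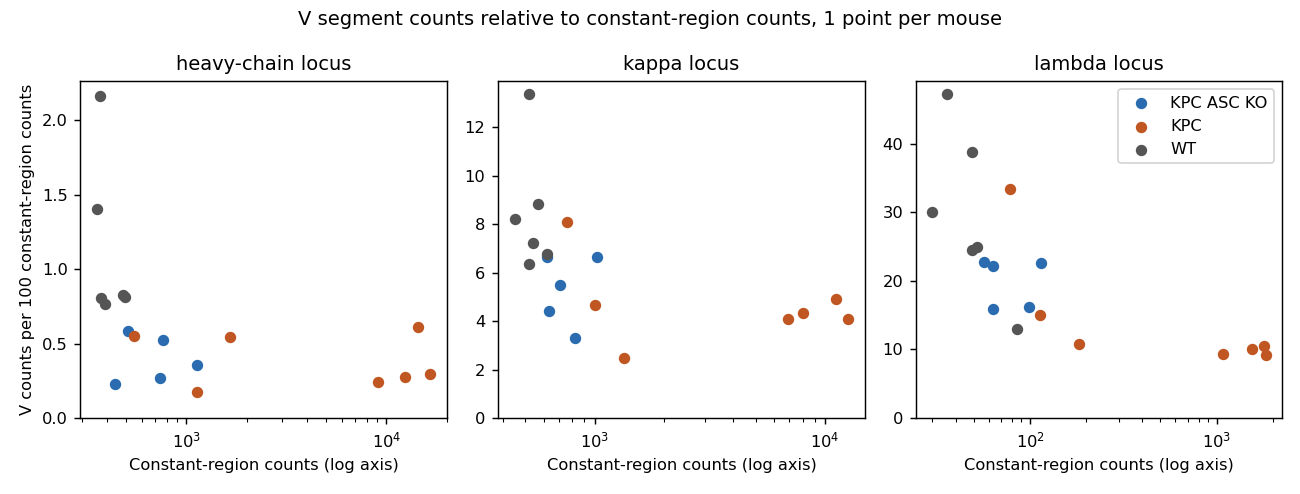
V counts per 100 constant-region counts against constant-region counts (log axis) at the heavy, kappa and lambda loci, with 1 point per mouse coloured by KPC ASC KO, KPC and WT. The highest points at each locus are WT mice, at 2.16 for heavy, 13.4 for kappa and 47.2 for lambda, and the 4 KPC libraries with the most constant counts lie between 9.22 and 10.53 for lambda.

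Kappa V use was broad. The Igkv6 family, with 8 segments in the table, held 20.5% of kappa V counts, and the Igkv12 family, also with 8, held 20.0%. By group, Igkv6 took 28.1% in KPC ASC KO, 19.4% in KPC and 22.6% in WT mice, and Igkv12 took 13.3% in KPC ASC KO, 21.1% in KPC and 17.8% in WT mice. These shares pool 203 counts in KPC ASC KO, 1832 in KPC and 270 in WT mice and were not tested. Igkv12-46 was the segment with the most kappa V counts, 206 in all. It had 1, 0, 0, 5 and 3 counts in KPC ASC KO mice 318, 335, 377, 384 and 388, 6 to 48 in KPC mice (median 34) and 1 to 5 in WT mice, and it was the leading kappa segment in 6 of the 7 KPC libraries.

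Other kappa segments varied between the immunoglobulin-rich mice. Igkv6-17 had 2, 8, 29 and 32 counts in KPC mice 40, 89, 145 and 154, while Igkv6-15 had 26, 9, 18 and 16 there. Igkv12-41, named after its values were seen, had 6, 10, 47 and 45 counts in the same mice and was the leading kappa segment of mouse 154, at 8.21% of its 548 kappa V counts. No kappa segment reached 20% in a library with at least 50 kappa V counts. In the libraries with at least 50, the chance that 2 kappa V counts come from the same segment was 2.19% in KPC ASC KO mouse 384, 2.08 to 4.67% in 5 KPC mice and 2.34 and 2.78% in 2 WT mice. The highest value, 4.67%, was that of KPC mouse 40, in which Igkv12-46 held 39 of 280 counts.

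Among heavy-chain V segments the Ighv1 family, with 38 segments in the table, held 66.9% of the 248 counts. Ighv1-54 had 38 counts in all, 21 of them in KPC mouse 154, where it took 23.9% of 88 heavy V counts, the only library with at least 50. Ighv9-3 and Ighv1-76 were the next by mean level over the 18 mice. The heavy J segments Ighj1, Ighj2, Ighj3 and Ighj4 held 8, 14, 13 and 22 counts, with 0 in KPC ASC KO, 56 in KPC and 1 in WT mice. Iglj1 held 28 of 36 lambda J counts. The reference sequence is that of C57BL/6 mice, so reads from 129Sv alleles of V segments, or of the IgG2 gene that differs between mouse strains, may be counted less fully.

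Of 18 B cell genes, 10 were tested and 4 were called higher in KPC against WT (Cd74, Cd72, Cd22 and Ebf1), and the median log2 fold change of the 10 was 1.95. For this and the lists that follow, the shares over all genes were those given above, 14.8% higher and 15.1% lower in KPC against WT. In KPC ASC KO against KPC they were 6.73% higher and 2.69% lower. None of the 10 was called in KPC ASC KO against either KPC or WT, with medians of -1.60 and 0.24. Cd22, an inhibitory receptor of B cells, averaged 77.3 CPM in KPC and 13.7 CPM in WT mice (2.53, SE 0.81, adjusted p = 0.026). Cd22, Cd72 and Ebf1 met the count filter in no WT library and were tested only because they were high in KPC. Their calls, and with them the count of 4, are no support for a difference. Cd79a, a signalling chain of the B cell receptor, missed the threshold (adjusted p = 0.0801). In KPC mice 43, 48 and 210 the summed B cell levels were 559, 845 and 1088 CPM, against 470 to 525.8 CPM in WT mice. Most of those sums was Cd74, which other antigen-presenting cells also express. Without Cd74, left out after its values were seen, the sums were 75.9, 149 and 192.1 CPM in these 3 KPC mice, against 191.9 to 292 CPM in WT mice.

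The plasma cell list moved in both directions. Of its 12 tested genes, 2 were higher in KPC against WT (Cd93 and Sdc1) and 7 lower, among them Tent5c (-2.22, adjusted p = 5.44e-05), Edem2 (-1.90, adjusted p = 0.000857) and Xbp1 (-0.76, adjusted p = 0.00239), the last a driver of secretory capacity that acinar cells also express. Cd93 and Sdc1 met the count filter in too few mice outside KPC, so their calls are no support for a difference. Sdc1 had 330 counts in KPC mouse 43, the largest library and the lowest in immunoglobulin share. It had 53 to 91 counts in the immunoglobulin-rich KPC libraries. All 12 acinar genes were lower in KPC against WT, led by Bhlha15 (-3.06) and Cela1 (-3.21), and 11 of 12 were higher in KPC ASC KO against KPC. The summed acinar level was 151689 to 540468 CPM in KPC ASC KO, 11895 to 230094 CPM in KPC and 319661 to 595848 CPM in WT mice, and its part in the immunoglobulin levels was not tested. Mzb1, a plasma cell gene, had 0 counts in every KPC ASC KO and WT library and at most 2 in a KPC library. Other genes of the list, named after their values were seen, had more counts in the immunoglobulin-rich libraries. In KPC mice 40, 89, 145 and 154 Pou2af1 had 36, 64, 114 and 132 counts, against 0 to 3 in WT mice. Irf4 had 50, 49, 48 and 60 there, against 0 to 9. Slamf7 had 24, 43, 76 and 52, against 0 to 3, and Tnfrsf13b 18, 55, 48 and 50, against 0 to 1. These counts are not scaled by library totals.

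Of the genes for class switching and the germinal centre, 2 of 6 tested were higher in KPC against WT, Basp1 (1.97, adjusted p = 0.00197) and Apobec1 (1.33, adjusted p = 0.0326). Apobec1 met the count filter in no WT library and was tested only because it was high in KPC, so its call is no support for a difference. Among factors of IgA transport, homing and switching, Tgfb1, a cytokine that directs switching to IgA, averaged 9.20 CPM in KPC ASC KO, 29.8 CPM in KPC and 6.40 CPM in WT mice. It was higher in KPC against WT (2.37, SE 0.51, adjusted p = 0.00176) and lower in KPC ASC KO against KPC (-1.53, SE 0.43, adjusted p = 0.0266). Itgb7, an integrin chain of gut-homing lymphocytes, averaged 9.52 CPM in KPC ASC KO, 39.6 CPM in KPC and 11.5 CPM in WT mice, and was likewise called in both comparisons (1.84, adjusted p = 0.0317, and -2.01, adjusted p = 0.0448). No KPC ASC KO or WT library met the count filter for Tgfb1 or Itgb7. Both were tested only because they were high in KPC, and their calls are no support for a difference. Pigr, the receptor that carries polymeric IgA across epithelia, averaged 103 CPM in KPC ASC KO, 112 CPM in KPC and 104 CPM in WT mice and was not called.

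Of the receptors for the constant region, 3 of 5 tested were higher in KPC against WT, namely Fcgr3 (1.76, adjusted p = 0.00317), Fcer1g (1.15, adjusted p = 0.00892) and Fcgr2b (1.396, adjusted p = 0.0354). Of 2 tested T cell genes, Trbc1 was higher (2.32, adjusted p = 0.0314). Fcgr3, Fcgr2b and Trbc1 met the count filter in too few mice outside KPC, so their calls are no support for a difference. Of 6 tested genes of lymph node stroma, Ccl21a (1.22, adjusted p = 0.0296) and Mfge8 (0.91, adjusted p = 0.0189) were higher. Glycam1, made by the high endothelial vessels of lymph nodes, had 1697 counts in KPC mouse 89 and 10 to 29 in WT mice, and whether lymph node tissue was in a sample was not tested. No duct gene was called, Ins2 and Sst of the 7 islet genes were lower, and the 1 tested gene of V(D)J recombination, Xrcc5, was not called (-0.93, adjusted p = 0.116). In KPC ASC KO against KPC, 3 of the 12 plasma cell genes were higher and 1 of the 6 lymph node stroma genes was lower. Over all genes tested, 6.73% were higher and 2.69% lower in that comparison. It gave 0 calls in the germinal centre, T cell, receptor, V(D)J, duct and islet lists. Between KPC ASC KO and WT mice, 0 genes of any list were called.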

How the data were processed

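The authors deposited whole-number counts of unique molecular identifiers per gene for 18 libraries, not normalised. Per the labels' protocols, poly(A) priming added a sample index of 8 bp and an identifier of 10 bp before samples were pooled. Per the submitters' processing notes, the builds were GRCm38 and mm10, with R 4.1.2, edgeR 3.36.0 and limma 3.50.0. The sources used here do not give the aligner, the rule for collapsing identifiers or the strand setting. Of the members, the 194 immunoglobulin rows all had the start and end of GENCODE M21.

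The main test here was run on these counts in edgeR 4.0.16 under R 4.3.3 (filterByExpr with a minimum count of 10, TMM, robust quasi-likelihood fit of 18 mice in 3 groups, no covariate, Benjamini-Hochberg over all genes tested, calls at 0.05), checked on simulated counts. DESeq2 1.42.0 was an alternative. Class sums were fitted as rows in place of their members. Shares were compared by exact permutation in SciPy 1.17.1, with at least 20 counts in the denominator. Identities came from Biopython 1.88. Over the 18 libraries, totals of 294077 to 1626977 counts limit precision, and a count of 0 allows up to 3 counts. Every pair of libraries in a group differed beyond sampling noise. Groups come from the genotype label. The labels give no sex, litter or batch. P-values measure the spread between mice, which the edgeR fit estimates for each gene over all 3 groups together.

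Members and gene lists were chosen with earlier results of these data known. Named are all constant genes and Jchain, the 3 V segments per locus with the highest mean level, any V segment called or above 20% of at least 50 counts, and from each list up to 4 called genes by smallest p. Some genes of the lists are not reported here.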

Additional observations from a re-analysis of the deposited data

Results flagged for a closer look

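A mouse was listed where its gap to the nearest mouse of its group, relative to the group's range, passed Dixon's 95% critical value. Chance lists about 1 in 20 groups, and 69 were screened, of which 7 are listed. Ighe stood at 179 CPM in WT mouse 1237, against 75.7 to 114 CPM in the other WT mice. Ighg2b stood at 263 CPM in KPC ASC KO mouse 384, against 68.7 to 105 CPM in the other 4, and Ighg2c at 271 CPM in the same mouse, against 57.5 to 93.8 CPM. The summed IgG constant genes stood at 722 CPM in KPC ASC KO mouse 377, against 1271 to 1373 CPM, and their share of heavy-chain constant counts there was 51.05%, against 63.9 to 68.6%. Iglc3 stood at 50.7 CPM in KPC ASC KO mouse 388, on 12 counts, against 37.0 to 40.8 CPM. The Igha share was 25.5% in KPC mouse 43, against 3.53 to 12.8% in the other KPC mice.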

How the results depend on the processing

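The number of immunoglobulin genes called in KPC against WT, 7, became 11 with DESeq2, 14 with library totals, 4 when scaling left out the immunoglobulin rows, 4 with no filter on low counts (3 higher and Igkv4-78, with 2 counts in all, lower) and 1 without KPC mice 40, 89, 145 and 154. Called class measures, 6, became 11 with library totals, 3 with no filter and 1 without those 4 mice. In KPC ASC KO against KPC, 0 genes called became 5 with DESeq2 and 14 with library totals, and 0 class measures became 3 and 11. Library totals moved the median of all genes by 1.34 in KPC against WT and by -1.09 in KPC ASC KO against KPC.

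The 4 mice are those with the most immunoglobulin, so leaving them out can itself set the sign. Without them, log2 fold changes of class measures in KPC against WT changed sign for Ighm (-0.39), Ighd (-0.32), Ighe (-1.38), IgG (-0.74), Igkc (-0.90), lambda constant (-0.64), lambda V (-1.18) and Jchain (-0.54). In KPC ASC KO against KPC they did so for Igha (0.10), Ighm (0.97), Ighd (1.43), Ighe (1.03), IgG (0.68), Igkc (0.77), lambda constant (0.66), kappa V (0.69), lambda V (0.70) and Jchain (1.17), and the IgG share difference became 2.92 points. Values near 0 also changed sign: heavy V in KPC against WT (-0.000577, scaling without immunoglobulin rows), kappa V (0.031 with DESeq2, 1.32 with totals, 0.0043 with RLE factors, 0.17 with no filter), and in KPC ASC KO against WT, IgG (0.16) and Igkc (0.048) with totals and lambda constant (-0.00563, scaling without immunoglobulin rows). The cause was not tested.

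Leaving out 1 mouse at a time gave 3 to 13 genes and 2 to 8 class measures called in KPC against WT, and 0 to 9 and 0 to 7 in KPC ASC KO against KPC, with calls there only without KPC mouse 43, 48 or 210. These KPC mice had the least immunoglobulin, so their removal itself raises KPC levels. Genes called in KPC against WT numbered 11 without KPC mouse 48 or 210, and 3 to 5 without any of the other mice except KPC mouse 43. Over these settings heavy V in KPC against WT ran from -0.00597 to 0.38, kappa V from -0.15 to 0.24, IgG in KPC ASC KO against WT from -0.13 to 0.0697 and lambda constant from -0.0778 to 0.11. The difference in Igha share ran from -2.54 to 1.13 points in KPC ASC KO against KPC, in Ighm share from -0.48 to 2.29 points in KPC against WT, and in lambda share from 3.56 to 4.88 points in KPC against WT. The heavy V sum was filtered out in 5 of these settings and without the 4 mice. No paired analysis was possible because mouse numbers are not shared between groups.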
